A study of Mus musculus with 3 samples.

Results

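Cells that carried transcripts of bile duct epithelium were described in mouse liver before and after local electroporation injury. A barcode was taken as a cholangiocyte candidate when it held at least 200 genes, at least 3 of the 8 epithelial genes Epcam, Krt19, Krt8, Krt18, Cldn7, Tm4sf4, Fxyd3 and Tspan8, and no transcript of Gkn1, Gkn2, Tff1, Upk3b or Msln, which mark stomach and mesothelium. This gate took 151 of 25263 cells with at least 200 genes, 56 from the sham control, 77 from livers 1 day postinjury (p.i.) and 18 from livers 7 days p.i. Transcripts were counted as unique molecular identifiers (UMIs), tags that count each captured RNA once, in Drop-seq libraries, where single cells are caught with barcoded beads in droplets. The measured values of the 8 markers and the 5 excluded genes selected these cells, which were chosen by detection of these genes, so that the levels of all genes in them against other cells are a description and were not tested.

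All mice were adult C57BL/6. The sham control had surgery without injury and was taken after 1 day. In the other groups irreversible electroporation (IRE, 8 pulses of 50 ms at 1 s intervals between plate electrodes on both faces of a lobe) injured the liver, which was taken 1 or 7 days later. Each group was 1 library from 3 pooled livers, from a 4 mm punch of the injured area or the same area of control liver, so that no difference between groups had a replicate check and no p-value was computed. Intervals below are 95% and cover the counting of UMIs or cells only, and a difference between livers or between cells adds to them.

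Cholangiocytes line the bile ducts, where they change the salt and water content of bile, and they are held together by tight junctions and by the simple-epithelium keratins 8, 18, 19 and 7. The factors Sox9 and Onecut1 mark and maintain their fate, and a primary cilium that depends on polycystic disease proteins such as Pkhd1 senses bile flow. After liver injury these cells are known to take part in the ductular reaction, in which duct cells multiply, secrete osteopontin (Spp1) and cytokines, and can express genes of wounded epithelium.

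Most of the gated cells matched their label by genes that the gate did not use. Spp1, a secreted phosphoprotein, and Clu, the secreted chaperone clusterin, were detected in 51 and 53 of the 56 control cells, in 69 and 77 of the 77 cells at 1 day and in all 18 at 7 days. Clu was also detected in all of the hepatocyte-rich gated cells described below, 2 in the control and 11 at 1 day. Its detection alone therefore does not mark a duct cell. Spp1 stood at 8204 counts per 1000000 UMIs (CPM, interval 7596 to 8847) in gated control cells and at 524 in the other cells of that library. At 1 day the level was 11719.7 CPM (11271 to 12181) against 301 in other cells. At 7 days it was 23116 CPM (21096 to 25277), while the other cells reached 4185 CPM, so that an Spp1 transcript was a weaker sign of duct identity in this library. Clu was at 9504, 11606 and 20473 CPM in gated cells of the control, 1-day and 7-day libraries, and at 173, 586 and 67.1 CPM in their other cells.

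The duct fate factor Sox9 was at 389, 319 and 384 CPM in gated cells, in that order of libraries, against 4.66, 15.5 and 0.987 in other cells. Averaged over the 3 libraries on the log2 scale, with counts under 3 set to a floor of 3, Sox9 was 87.5 times its level in other cells. Among the 25 genes with the highest such ratio, from 60.6 to 135 times, stood Onecut1, a duct and liver factor (87.1), Cldn3, a tight junction claudin (85.6), Prom1, a membrane protein of progenitor cells (64.6), Dcdc2a, a doublecortin family protein of the cilium (61.6), and Pkhd1, fibrocystin (60.6). The matrix protease Mmp7 (125), the collectin Sftpd (119.9), the secreted protein Wfdc2 (72.3) and the membrane-associated Pdzk1ip1 (91.6) and Anxa13 (95.5) were in the same set. The gastric genes Gkn3 (90.2) and Tff2 (67.1) were in it too, and 1 control cell, described below, held 33 Gkn3 and 23 Tff2 UMIs. Gkn3 had no UMI in gated cells at 1 or 7 days and Tff2 none at 7 days. These parts of their averages rest on the floor of 3. Onecut1, Pkhd1 and Msmp had 1 gated UMI at 7 days, also counted as 3. Msmp, the highest at 135, rested on few cells: 1 control cell held 95.1% of its 41 control UMIs. Other markers of duct were thin at this depth. Krt7 had 11, 30 and 10, and Cftr, the chloride channel of bile secretion, had 1, 1 and 2.

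**Figure D1:**
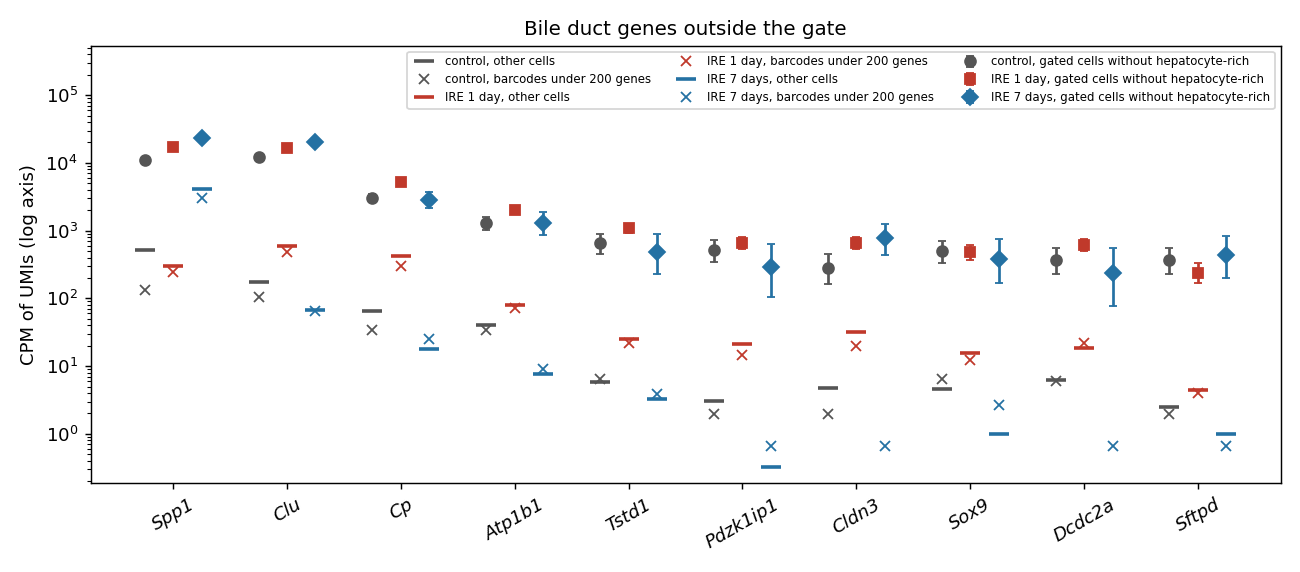
Level of 10 bile duct genes outside the gate, in CPM on a log axis, in gated cells without hepatocyte-rich cells (filled markers with 95% counting intervals), in other cells (dashes) and in barcodes under 200 genes (crosses), for the control (gray), 1 day (red) and 7 days (blue), with values of 0 not drawn. Gated cells lie above the other cells for every gene shown, and Spp1 in the 7-day library has the highest level outside the gate, 4185 CPM.

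Onecut1 and its relatives bind a core taken here as ATCGAT, with the variant ATCAAT, which reads ATTGAT on the opposite strand. The 250 bases before each start in the RefSeq promoters of build GRCm38.p6 were searched for it on both strands. Of the 33 gate and leading genes, 22 had a promoter, and 4 of these (18.2%), namely Krt8, Tspan8, Mmp7 and Bex4, held it, against 8.48% of 27025 genes. The 30 bases around the match are shown for 3 of them to place the core, in capitals, which begins 186 bases (Krt8), 219 bases (Tspan8) and 235 bases (Bex4) before the start. They lie on the minus strand at chr15:102004511-102004540 and on the plus strand at chr10:115817053-115817082 and chrX:136138749-136138778. A match of letters is not evidence of binding, and no binding was measured.
Krt8: gccttcacagggATCAATtgctctctcctg
Tspan8: ctttgtgctcctATCAATtaaaaaaagggg
Bex4: agagaaggaaaaATCAATctcccagagaac

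Not all gated cells carried the duct genes at a high level. In 13 cells, 2 of the control and 11 at 1 day, over 10% of UMIs came from 34 hepatocyte genes, and the gap was clear, with the next cell at 3.85% and the lowest of these 13 at 14.3%. These hepatocyte-rich cells were deep, with 2894 to 16551 UMIs, and held 26.6% of all gated UMIs of the control and 33.4% at 1 day. All 13 had Krt8 and 12 had Krt18 as well, keratins that hepatocytes also express, and 11 passed with exactly 3 markers. Epcam was found in 1 of them and Sox9 in 1. Spp1 stood at 229 CPM (control) and 572 CPM (1 day) in them, against 11093 and 17319.6 CPM in the hepatocyte-poor gated cells, and Alb, the major product of hepatocytes, stood at 31353 and 65226 CPM against 2053 and 5383. They went against the label, and counts and ratios that moved without them are given both ways below. Leaving them out did not remove all hepatocyte RNA. The 34 genes still took 0.725%, 1.91% and 0.519% of UMIs in hepatocyte-poor cells of the control, 1 day and 7 days. The 1-day share was 2.64 times the control (2.39 to 2.93). In barcodes under 200 genes the shares were 0.186%, 3.10% and 0.215%, and the part of free RNA was not tested.

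In the control, 6 of the 54 hepatocyte-poor cells had under 0.5% of UMIs from Spp1 and Clu together, and no cell at 1 or 7 days did. The highest of the 6 was at 0.448% and the next control cell at 0.532%, so that this limit, set after the values were seen, has no gap. A Gkn3 UMI, a transcript of stomach epithelium, was found in 2 of the 6, and 1 of these held 33 Gkn3 and 23 Tff2 UMIs. The 6 also held 28 of the 40 UMIs of Vim, the intermediate filament of mesenchyme, and 87 of the 111 UMIs of Crip1, a LIM protein, in hepatocyte-poor control cells. In the remaining 48 control cells the share of Spp1 and Clu reached 5.79%, as far as 7.43% at 1 day and from 1.46% to 8.84% at 7 days.

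**Figure D2:**
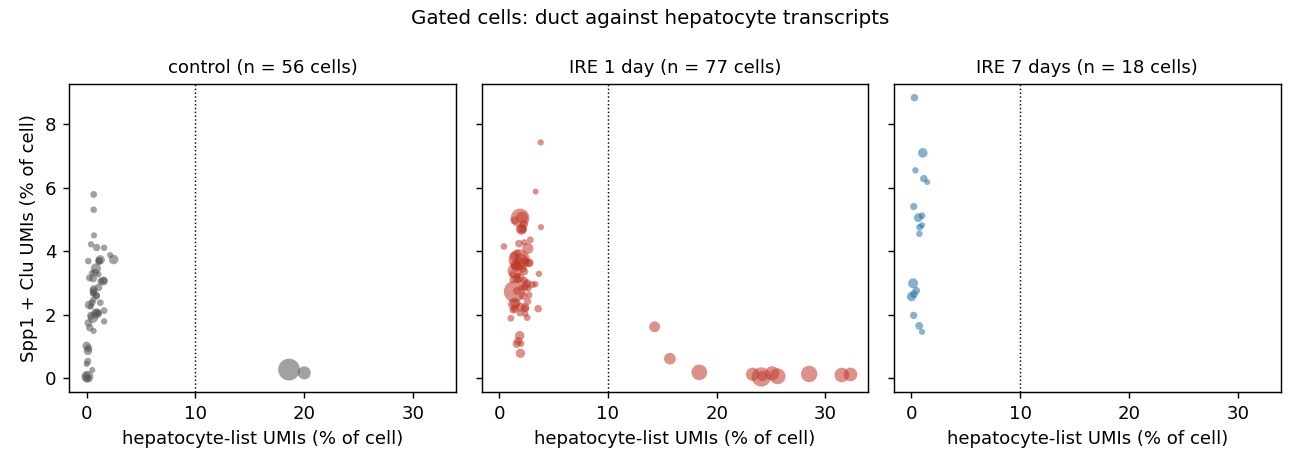
Each gated cell by its share of UMIs from 34 hepatocyte genes (x axis, percent) and from Spp1 and Clu (y axis, percent), with 1 panel per library and point size growing with the cell's UMIs. The 13 cells to the right of the dotted line at 10% are the hepatocyte-rich ones, and they lie near the bottom of the panels, at 0.0392% to 1.62% Spp1 and Clu.

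The gated cells made up 0.539% of control cells (56 of 10386, interval 0.408 to 0.700), 0.832% at 1 day (77 of 9253, 0.657 to 1.04) and 0.320% at 7 days (18 of 5624, 0.190 to 0.505). Without hepatocyte-rich cells the shares were 0.520%, 0.713% and 0.320%. The gate needs depth, and when every barcode was thinned to 300 UMIs it passed 16 of 10177 (0.157%, 0.0899 to 0.255), 19 of 8955 (0.212%, 0.128 to 0.331) and 8 of 5079 (0.158%, 0.0680 to 0.310), intervals that overlap, with 209, 298 and 545 shallower cells left out. A difference in the share of duct cells was therefore not detectable at equal depth. Fewer cells of this type and less RNA per cell cannot be told apart here, and the share also depends on how many immune cells entered the wound. Just outside the gate, 38, 96 and 6 cells had 2 markers and no excluded gene, with Spp1 at 4719, 1515 and 15055 CPM, Clu at 6268, 2881 and 20529 CPM and 11, 9 and 1 Sox9 UMIs. Just inside it 18, 22 and 4 cells had exactly 3, with Spp1 at 3035, 2018 and 13784 CPM, Clu at 4245, 2937 and 16452 CPM and 9, 1 and 4 Sox9 UMIs, so that cells with duct transcripts lay on both sides of the limit.

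The libraries held 10032574, 8563287 and 4580021 UMIs in control, 1 day and 7 days, of which gated cells held 82279, 219630 and 20808. A gated cell had a median of 929.5, 1485 and 1039 UMIs, against 594, 507 and 456 in other cells, and mitochondrial genes took 14.4%, 6.41% and 2.38% of gated UMIs, against 20.5%, 22.3% and 4.11% in other cells. RNA of other cell types was present in the same barcodes: at least 3 phagocyte markers were found in 15, 52 and 10 gated cells, at least 3 endothelial markers in 2, 39 and 1, and at least 3 neutrophil markers in 2, 3 and 14. Of cells with immune markers in each library, 0.204%, 0.851% and 0.260% passed the gate. The 12 neutrophil genes summed to 0.0754%, 0.0405% and 1.52% of gated UMIs, below the 0.420%, 0.0693% and 4.29% of other cells and the 1.00%, 0.0829% and 9.77% of barcodes under 200 genes. At 7 days 9 of the 12 were detected in gated cells, and their sum was 20.2 times the control (15.4 to 27.0), with S100a8, S100a9 and Retnlg higher. Ly6g, Camp and Ltf had no UMI in gated cells of any library. When cells with at least 3 markers of another blood, vessel or stromal type were left out, 41, 20 and only 4 gated cells remained, so that results at 7 days rest largely on cells that also carried such RNA. The part of this RNA in the results was not tested. Libraries also shared barcodes: 13 and 20 of the 77 barcodes at 1 day recurred in the control and 7-day libraries. Of these, 1 passed the gate at both times, with 15584 UMIs at 1 day and 412 UMIs at 7 days, read 4.19 and 1.32 times per UMI, and 17 cells remain at 7 days without it.

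A gene was counted as different between libraries at 2-fold or more, among genes with at least 20 UMIs in the gated cells of both libraries together. At 1 day against the control 2690 genes could be compared, of which 396 (14.7%) were higher and 167 (6.21%) lower, and without hepatocyte-rich cells 270 of 1925 were higher and 89 (4.62%) lower. At 7 days against the control the counts were 177 (21.3%) higher and 180 (21.6%) lower of 832, and 114 (19.3%) and 74 (12.5%) of 590 without those cells. At 7 days against 1 day 349 (16.1%) were higher and 386 (17.8%) lower of 2166. The median log2 ratio over all compared genes was 0.13, 0.16 and -0.02 in these 3 comparisons. Scaled per UMI without mitochondrial genes, the medians were 0.00, -0.03 and -0.08, and the counts of higher and lower genes became 310 and 219 at 1 day and 133 and 212 at 7 days against the control. The comparisons with the control share its cells and are not independent of each other.

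Genes of bile duct identity summed to a higher share at 7 days than in the control, in gated cells and in other cells alike. In gated cells Spp1 and Clu carried most of it. At 1 day the share in gated cells was above the control except when the deepest cells were left out. The 24 duct genes outside the gate took 2.29% of gated UMIs in the control (2.19 to 2.40), 2.95% at 1 day (2.88 to 3.02) and 5.09% at 7 days (4.79 to 5.40). In other cells they took 0.0951%, 0.133% and 0.469%, and in barcodes under 200 genes 0.0409%, 0.113% and 0.382%. Spp1 in other cells was at 524, 301 and 4185 CPM, and Clu at 173, 586 and 67.1. The part of free RNA in the gated share was not tested. In gated cells the hepatocyte-rich cells also mattered. Without hepatocyte-rich cells the shares of gated UMIs were 3.0%, 4.29% and 5.09%. Without the deepest 5% of gated cells of each library they were 3.22%, 2.69% and 5.28%, so that the share at 1 day was then below the control. This left out both hepatocyte-rich control cells and 1 Spp1- and Clu-poor control cell. At 1 day it left out 1 of the 11 hepatocyte-rich cells and 3 duct-rich cells, with 2.73% to 5.05% Spp1 and Clu. The sets compared thus differ in their hepatocyte-rich cells as well as in depth. The 22 genes other than Spp1 and Clu took 0.677% (0.613 to 0.746), 0.889% (0.842 to 0.939) and 0.730% (0.619 to 0.856) in hepatocyte-poor gated cells. This was 1.31 times the control at 1 day (1.17 to 1.47) and 1.08 times at 7 days (0.890 to 1.30). Without Spp1- and Clu-poor cells as well it was 1.21 (1.08 to 1.36) and 0.997 times (0.820 to 1.21). In other cells the same 22 genes were 1.73 times the control at 1 day (1.63 to 1.83) and 1.70 times at 7 days (1.59 to 1.83). In all gated cells Spp1 itself was 1.43 times the control at 1 day (1.31 to 1.56) and 2.82 times at 7 days (2.5 to 3.17), and Clu was 1.22 times (1.13 to 1.32) and 2.15 times (1.91 to 2.43). Without hepatocyte-rich cells the 7-day ratios were 2.08 for Spp1 and 1.69 for Clu.

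Single duct genes differed in direction. At 1 day 2 of 18 compared duct genes were at least 2-fold higher, where 14.7% of all compared genes were, and none lower: Cldn3, with 20 control and 110 1-day UMIs, was 2.06 times the control (1.27 to 3.50), and the keratin Krt23, with 3 and 35 UMIs, was 4.37 times (1.38 to 22.2). Without hepatocyte-rich cells 4 of 18 were higher, with Anxa4 and Wfdc15b added. At 7 days 8 of 15 were higher and 3 lower, where 21.3% and 21.6% of all genes were. Without hepatocyte-rich cells 4 of 15 were higher, namely Spp1, Krt7, Cldn3 and Anxa4, where 19.3% of all genes were. The same 3 were lower, where 12.5% of all genes were. Krt7, a duct keratin, was at 134, 137 and 481 CPM in control, 1-day and 7-day gated cells and 3.59 times the control at 7 days (1.37 to 9.32), or 2.64 times without hepatocyte-rich cells. Cldn3 was 3.16 times the control (1.53 to 6.42). Cd24a, a surface glycoprotein, was 2.43 times the control (1.40 to 4.15), or 1.79 times without hepatocyte-rich cells, and 5.39 times in the other cells. The lower genes were Cdh1, E-cadherin, with 21, 43 and 1 UMIs, Sorbs2, an adaptor of the actin skeleton, with 24, 93 and 1, and Bicc1, and the intervals of the ratios of Cdh1 (0.00455 to 1.17) and Sorbs2 (0.00401 to 1.01) include no difference. Sox9 was 0.819 times the control at 1 day (0.532 to 1.29) and 0.989 times at 7 days (0.394 to 2.19), an interval at 7 days that includes a 2-fold difference either way.

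Keratins of the gate, whose presence chose the cells, are given as description. Krt8 was at 1057 CPM (847 to 1304) in the control, 578 (482 to 688) at 1 day and 2499 (1866 to 3277) at 7 days, and Krt18 at 1300.5, 756 and 3268. Krt19 was at 304, 259.5 and 769 CPM and Epcam at 839, 747 and 1249.5. The 7-day library was highest for each of these 4 genes, and Epcam had the smallest difference, 1.49 times the control (0.911 to 2.37). Of the 8 gate genes 5 were at least 2-fold higher at 7 days than in the control, where 21.3% of all genes were. Without hepatocyte-rich cells it was 1, Krt18, at 2.10 times (1.51 to 2.90), where 19.3% of all genes were higher. In the hepatocyte-poor cells Krt8 was 1.91 times the control, Krt19 1.86 times (0.927 to 3.62) and Epcam 1.09 times (0.669 to 1.74). A single cell held 38.5% of the Krt8 UMIs at 7 days.

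Genes of the cilium and polycystic disease were nearly undetected at 7 days. Their 10 genes summed to 66 UMIs in the control (0.0802% of UMIs), 151 at 1 day (0.0688%) and 3 at 7 days (0.0144%, 0.00297 to 0.0421), 0.180 times the control (0.0361 to 0.549). Bicc1, an RNA-binding protein mutated in cystic kidney disease, had 31, 65 and 0 UMIs, and against the limit that 0 allows, 3 UMIs, it was at least 2.61-fold lower at 7 days than in the control. Pkhd1 had 13, 24 and 1 UMIs, a 7-day ratio of 0.304 with an interval from 0.00716 to 2.03 that allows no direction. In the other cells the list also was lower at 7 days, 0.00599% against 0.0159% in the control. The factors Onecut1 (13, 41 and 1 UMIs) and Sox4 (31, 60 and 2 UMIs) were low at 7 days too, with ratios to the control of 0.304 (0.00716 to 2.03) and 0.255 (0.0296 to 1.00). Ehf, another epithelial factor, had 15, 48 and 14 UMIs and was 3.69 times the control at 7 days (1.65 to 8.20). The 19 transcription factor genes together took 0.220%, 0.198% and 0.235% of gated UMIs, and 23 cell junction genes took 0.295%, 0.299% and 0.303%. The 4 cells at 7 days without markers of another type held 2690 UMIs in all, of which 2 were of cilium genes (0.0743%, 0.00901 to 0.268), against 0.109% in the 41 control cells, and 1 each of Pkhd1 and Onecut1, too few to give a direction.

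Genes that move salts and water into bile were described by 16 members, which took 0.148% (0.123 to 0.177), 0.211% (0.192 to 0.231) and 0.226% (0.166 to 0.300) of gated UMIs. At 1 day 4 of 6 compared genes were at least 2-fold higher than in the control, against 14.7% of all genes, and none lower, and without hepatocyte-rich cells 2 of 4, Slc5a1 and Car2, with Aqp1 and Abcc3 under the minimum of UMIs. Among them Car2, carbonic anhydrase 2, which supplies bicarbonate, had 5, 33 and 7 UMIs and was 2.47 times the control at 1 day (0.959 to 8.11) and 5.54 times at 7 days (1.51 to 22.1), against 0.800 and 0.424 times in other cells. Aqp1, a water channel, had 2, 30 and 0 UMIs and was 5.62 times the control at 1 day (1.43 to 48.5), but it was more abundant in other cells, at 539.6 against 137 CPM at 1 day.

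Genes of wounded and adhering epithelium took a higher share at 7 days. The 32 genes took 0.713% (0.657 to 0.773) of gated UMIs in the control, 0.540% (0.509 to 0.571) at 1 day and 1.72% (1.54 to 1.90) at 7 days. Of 11 compared at 7 days against 1 day, 9 were at least 2-fold higher and none lower, where 16.1% and 17.8% of all genes were. Against the control 6 were higher and 1, Vim, lower, where 21.3% and 21.6% of all genes were. Without hepatocyte-rich cells the counts were 8 higher and 1, Anxa5, lower against 1 day, where 13.1% and 19.0% of all genes were. Against the control they were 5 higher and 1 lower, where 19.3% and 12.5% of all genes were. The sum was 2.40 times the control (2.10 to 2.75), 1.83 times without hepatocyte-rich cells and 2.19 times (1.89 to 2.53) without the Spp1- and Clu-poor control cells as well. In other cells the same list took 0.613%, 0.262% and 1.62%, highest at 7 days there too. The 1-day ratio to the control was 0.756 in all gated cells, 0.814 (0.735 to 0.902) without hepatocyte-rich cells and 0.972 (0.867 to 1.09) without the Spp1- and Clu-poor cells as well, an interval that includes no difference. In cells without markers of another type the shares were 0.869%, 0.744% and 1.26%.

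Mmp7, matrilysin, a protease of injured epithelium, was found at a far higher level in gated than in other cells. It stood at 134 CPM (66.7 to 239) in the control, 50.1 (25 to 89.6) at 1 day and 1105 (701 to 1659) at 7 days, when 55.6% of the gated cells had a UMI. The 7-day level was 8.27 times the control (3.87 to 18.8) and 22.1 times the 1-day level (10.3 to 50.1), while other cells had 2.27, 0.849 and 1.97 CPM. In the 4 cells at 7 days without markers of another type it had 1 UMI, where 2.97 would stand at the share of all gated cells, too few to place the difference in one kind of cell or the other. Tnfrsf12a, the receptor of the ductular mitogen TWEAK, was at 60.8, 86.5 and 769 CPM, 12.7 times the control at 7 days (4.43 to 44.2), with 28.0 CPM in other cells. Anxa3, an annexin, had 4, 25 and 15 UMIs and was 14.8 times the control (4.72 to 61.4), against 1.83 times in other cells. Sprr1a, a cornified envelope protein, had 6, 0 and 13 UMIs, but 53.8% of the 7-day UMIs came from 1 cell.

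Other members of this group were high in the 7-day library outside the gate as well. S100a11, a calcium-binding S100 protein, was at 583, 405 and 3700.5 CPM in gated cells, 6.34 times the control at 7 days (4.37 to 9.30), and 6.35 times in other cells. Anxa2, which binds S100a10, was 3.42 times (2.30 to 5.06) against 3.69 times. S100a6, another S100 protein, was at 984 CPM in the control, 91.1 at 1 day and 1922 at 7 days, and the other cells followed the same order at 818, 103 and 2983. Lgals3, galectin 3, had 17, 15 and 10 gated UMIs. For S100a11, Anxa2 and S100a6 gated and other cells had the same order of libraries, and the part of free RNA was not tested. Vim was 0.122 times the control at 1 day (0.0597 to 0.232), but 0.326 times (0.130 to 0.807) without hepatocyte-rich and Spp1- and Clu-poor cells. Anxa5, annexin 5, had another order: 1422 CPM in the control, 2518 at 1 day and 1346 at 7 days, 1.77 times the control at 1 day (1.45 to 2.18).

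**Figure D3:**
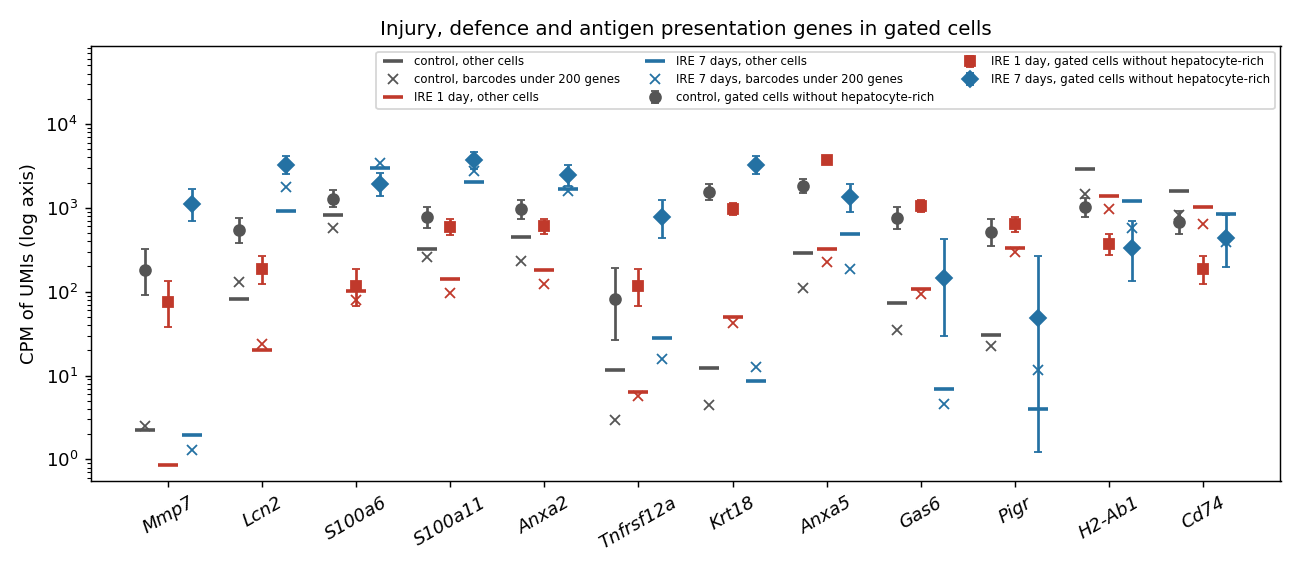
Level of 12 genes in CPM on a log axis in gated cells without hepatocyte-rich cells (filled markers with 95% counting intervals), in other cells (dashes) and in barcodes under 200 genes (crosses), for the control (gray), 1 day (red) and 7 days (blue). Mmp7 at 7 days lies far above other cells (1105 against 1.97 CPM), whereas S100a6, S100a11 and Lcn2 are high in all kinds of barcode at 7 days.

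Of 9 compared genes of mucosal defense and secretion, 3 were at least 2-fold higher at 7 days than in the control, namely Lcn2, Clu and Spp1, and 5 lower, namely Pigr, Tff2, Saa1, Saa2 and C3, where 21.3% and 21.6% of all genes were. Without hepatocyte-rich cells 2 of 7 were higher, Lcn2 and Spp1, and 2 lower, Pigr and Tff2, where 19.3% and 12.5% of all genes were. Of the control UMIs of Tff2, 23 lay in the 1 cell that also held 33 Gkn3 UMIs. Lcn2, lipocalin 2, which withholds iron from bacteria, was at 729 CPM (556 to 939) in the control, 141 (95.9 to 200.3) at 1 day and 3268 (2538 to 4143) at 7 days. It was 0.194 times the control at 1 day (0.121 to 0.303), or 0.338 times without hepatocyte-rich cells, and 4.48 times at 7 days (3.12 to 6.45). At 7 days 72.2% of gated cells had an Lcn2 UMI, 1 cell held 52.9% of them, and the other cells were at 914 and the barcodes under 200 genes at 1752 CPM. Pigr, the receptor that carries immunoglobulin A into bile, was at 1167 and 851 CPM in the control and 1 day, with 96 and 187 UMIs, and had 1 UMI at 7 days, 0.0412 times the control (0.00103 to 0.235). Without hepatocyte-rich cells it had 31, 94 and 1 UMIs and was 0.0936 times the control (0.00230 to 0.562). Complement C3 was at 2662, 1621 and 384 CPM, but 36 of its 219 control UMIs came from hepatocyte-poor cells, in which its 7-day ratio to the control was 0.645 (0.259 to 1.41). The acute phase genes Saa1 and Saa2, with 96 and 86 control UMIs, had none outside the 2 hepatocyte-rich control cells.

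Transcripts of MHC class II, which presents antigen to helper T cells, took a lower share of gated UMIs after injury. The 7 genes summed to 0.233% of gated UMIs in the control (0.202 to 0.269), 0.0888% at 1 day (0.0768 to 0.102) and 0.120% at 7 days (0.0778 to 0.177). All 4 compared genes were at least 2-fold lower at 1 day, against 6.21% of all genes, and 3 of 4 at 7 days, against 21.6%. H2-Ab1, a class II beta chain, was at 839, 359.7 and 336 CPM, 0.429 times the control at 1 day (0.307 to 0.601), and H2-Eb1 at 474, 137 and 96.1, 0.288 times (0.173 to 0.476). Cd74, the invariant chain, was at 535 CPM in the control and 0.307 times that at 1 day (0.192 to 0.487). The sum was 0.319 times the control at 1 day without hepatocyte-rich cells (0.253 to 0.401) and 0.300 times (0.237 to 0.380) without the Spp1- and Clu-poor cells too. Other cells carried more of these transcripts, 0.820%, 0.430% and 0.374%, and were lower after injury as well. In cells without markers of another type the class II shares were 0.248% (0.199 to 0.305), 0.0863% (0.0493 to 0.140) and 0.223% (0.0819 to 0.485), the last from 6 UMIs in 4 cells, with an interval that holds both the control share and the 0.120% of all gated cells at 7 days. The 12 genes of MHC class I were at 0.816%, 0.790% and 0.942%. None of 10 compared was past 2-fold at 1 day, where 20.9% of all genes were.

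Of 7 compared interferon-stimulated genes, 2 were at least 2-fold lower at 1 day than in the control, among them Irf1, where 6.21% of all compared genes were. None was higher, where 14.7% of all were. Without hepatocyte-rich cells 3 of 5 were lower, against 4.62% of all. Outside that list Iigp1, an immunity-related GTPase, was 0.173 times the control (0.108 to 0.270) and 0.0504 times (0.0155 to 0.127) without hepatocyte-rich cells, against 0.933 times in other cells. Irgm1, a GTPase of the same family, was 0.210 times (0.101 to 0.419). Irf1, an interferon regulatory factor, was 0.288 times the control (0.113 to 0.711). At 7 days Ifitm3, an antiviral membrane protein, was 2.66 times the control (1.68 to 4.16), and 2.20 times in other cells.

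The 20 immediate early genes, which also respond to tissue digestion, took 0.634%, 0.619% and 1.23% of gated UMIs, and 3 of 7 compared were at least 2-fold higher at 7 days than in the control: Jun (2.68 times, 1.42 to 4.98), Fos (3.24 times, 1.18 to 8.59) and Egr1 (2.97 times, 1.10 to 7.67). Over all compared genes 21.3% were at least 2-fold higher. Without hepatocyte-rich cells 1 of 5 immediate early genes compared was higher, near the 19.3% of all genes. The 17 glycolysis genes took 0.177% (0.150 to 0.209), 0.264% (0.243 to 0.286) and 0.433% (0.348 to 0.531). At 7 days 4 of 5 compared were at least 2-fold higher than in the control, against 21.3% of all genes, and 3 of 4 without hepatocyte-rich cells, against 19.3%. Among them were Gapdh and Eno1, both at 279.5 and 913 CPM in control and 7 days and both 3.27 times the control (1.68 to 6.27). Other cells were at 6.15 and 6.93 times for these genes. The small heat shock protein Hspb1, with 3, 25 and 10 UMIs, was 13.2 times the control at 7 days (3.39 to 74.5), whereas other cells were at 0.453 times. The control and 7-day UMIs of Hspb1 lay under the minimum of 20, so that it was not among the genes compared there. Hbegf, a growth factor that binds the EGF receptor, was at 85.1, 77.4 and 769 CPM, 9.04 times the control at 7 days (3.52 to 26.0) against 1.49 times in other cells, with all of its 7-day UMIs in 4 cells.

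The direction of the metallothioneins depended on the hepatocyte-rich cells. Mt1, which binds zinc, was at 3500.3, 442 and 865 CPM in all gated cells, with 15 of its 288 control UMIs in hepatocyte-poor cells. It was 0.247 times the control at 7 days (0.144 to 0.398) in all gated cells and 3.48 times (1.66 to 7.42) in the hepatocyte-poor ones. Mt2 was 0.508 times (0.293 to 0.833) and 4.75 times (2.12 to 11.1). In other cells the 7-day ratios were 2.13 and 1.27.

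**Figure D4:**
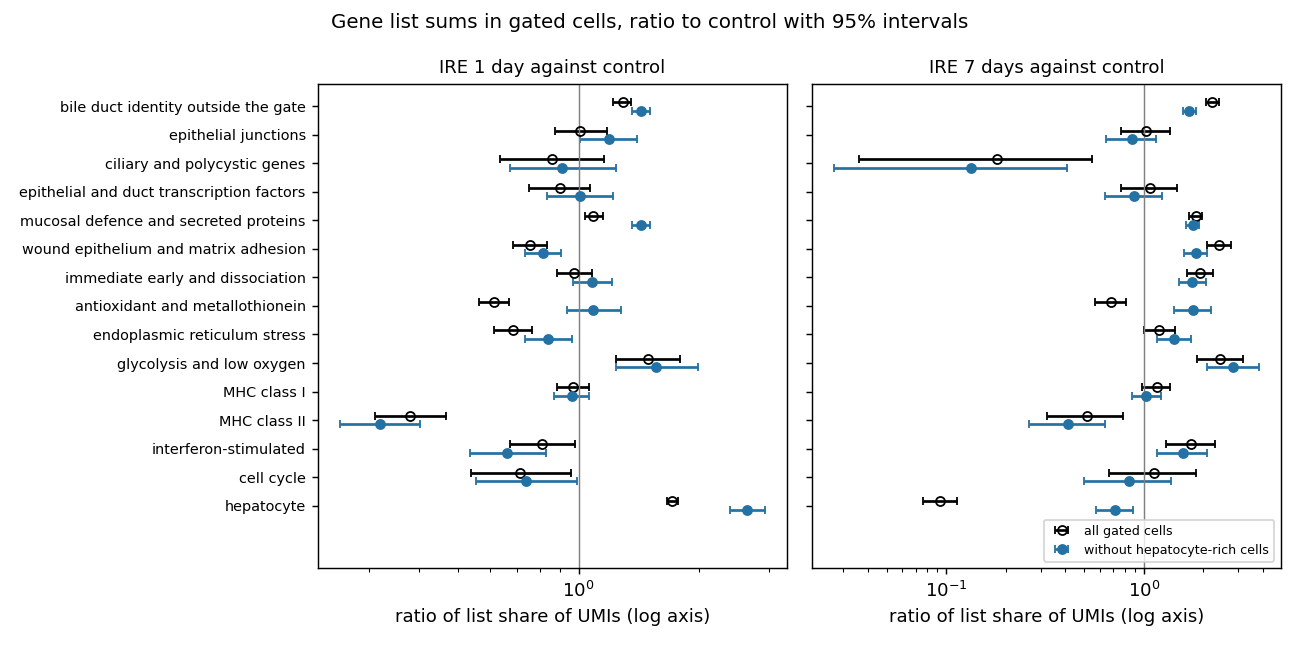
Ratio to the control of the share of UMIs that each of 15 gene lists took in gated cells, on a log axis with 95% counting intervals, at 1 day (left) and 7 days (right), for all gated cells (open black) and without hepatocyte-rich cells (filled blue). MHC class II lies below 1 at both times (0.380 and 0.515 in all gated cells), wound epithelium above 1 at 7 days (2.40), and the antioxidant list crosses 1 when hepatocyte-rich cells are left out.

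Among genes with at least 30 UMIs outside the gate and the lists of other cell types, the highest 7-day ratios to the control were those of Cxcl2 and Srgn, transcripts that were more abundant in other cells of that library than in gated cells. Cxcl2, a chemokine that draws neutrophils, had 4, 6 and 28 UMIs, 27.7 times the control at 7 days (9.68 to 109), with 5249 CPM in other cells against 1346 in gated cells, and Srgn, the proteoglycan core of granules, was 22.9 times (8.78 to 75.9), with 8867 against 1394 CPM. Ly6a, Sca-1, was at 170.2, 168 and 961 CPM in gated cells, 5.65 times the control (2.71 to 12.1), whereas other cells were at 0.716 times, with 50.0% of the 7-day UMIs in 1 cell. On the low side stood Gas6, a ligand of TAM receptors that clear dying cells, with 47, 157 and 3 UMIs and 0.252 times the control (0.0503 to 0.784), and Apoe, with 957, 4627 and 51 UMIs and 0.211 times (0.156 to 0.279). The carboxylesterase Ces1d had 31, 211 and 0 UMIs, 2.55 times the control at 1 day (1.74 to 3.85) and, against 3 UMIs, at least 2.61-fold lower than the control at 7 days. The same 3 genes were lower at 7 days in other cells, at 0.0953, 0.412 and 0.201 times.

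The gated cells also differed within libraries. Clustering of all 151 cells, without the gate and mitochondrial genes, gave 7 groups of 13 to 29 cells. The group of 13 was exactly the hepatocyte-rich cells, led by Uox and Hpx, a hepatocyte oxidase and a heme carrier. A group of 21 held 16 of the 18 7-day cells, 4 control cells and 1 1-day cell. Its leading genes S100a6, Retnlg, Cxcl2 and S100a8 came before Mmp7, and neutrophils express Retnlg, Cxcl2 and S100a8. S100a6 and Vim, also leading, had 106 and 35 UMIs in this group, whereas all 7-day gated cells held 40 and 1. Most S100a6 and Vim UMIs of the group thus came from its control and 1-day cells. A group of 29 with 27 cells at 1 day was led by Mrc1, Ptprb and C1q genes of sinusoidal and Kupffer cells while holding Spp1 at 12829.7 CPM, and a group of 25 with 24 cells at 1 day, at a median of 2609 UMIs, was led by Msmp, Adam33 and Bmyc. Control cells fell into a group of 25, with 24 from the control and led by the gastric genes Gkn3 and Tff2, mostly of 1 cell, and a group of 14 with 13 control cells led by H2-Eb1, Iigp1 and Cd74. The last group of 24 mixed 10 control, 13 1-day and 1 7-day cell and was led by Dsg2, a desmosomal cadherin, and Gas6. Clusters that follow a library cannot be told apart from that library here.

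Mesothelial cells, cells with an excluded gene and hepatocyte-rich cells outside the gate had lower Spp1 and Clu than hepatocyte-poor gated cells, which stood at 12136 CPM of Clu in the control and 16697 at 1 day, but more Clu than the 173 and 586 CPM of other cells. The 51 mesothelial cells of the control had Spp1 at 46.2 CPM, Clu at 716, Krt19 at 566 and no UMI of Epcam or Sox9. The 9 control cells that passed the markers but held an excluded gene had Tff1 at 7129 CPM, Spp1 at 171, Clu at 1768, 32 Krt19 UMIs and no Epcam or Sox9, and the duct list took 0.342% of their UMIs against 0.0951% in other control cells. Hepatocyte-rich cells outside the gate, 6 in the control and 180 at 1 day, had Spp1 at 51.3 and 41.5 CPM, Clu at 1590.3 and 1145, and Alb at 54019 and 68972. Hepatocyte-poor gated cells carried more Ambp, the precursor of alpha-1-microglobulin, and Cp, ceruloplasmin, per Alb UMI, but they were kept for a low share of hepatocyte genes, Alb and Ambp among them. Per 100 Alb UMIs they held 79.0, 50.1 and 300 of Ambp, against 4.56 and 4.45 in hepatocyte-rich cells outside the gate, and 8.11, 4.66 and 5.92 in barcodes under 200 genes. For Cp the values were 148, 97.8 and 454, against 9.82, 4.03 and 8.33 in barcodes under 200 genes. The 7-day values rest on 13 Alb UMIs, and the part of free RNA was not tested.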

How the data were processed

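Liver cells of 3 Drop-seq libraries were analyzed, 1 per group. The authors aligned reads with STAR 2.5.2a according to the submitters' processing notes and deposited UMI counts per gene and barcode, taken from sense-strand coding and untranslated reads of mapping quality 10 or more, with UMIs within 1 base merged. The notes name build hg19, a human build, although the 19091 symbols are mouse, so that no coordinates were taken from the files. No column of another sample was present (0). The deposited counts were summed over gated cells per library and divided by their UMIs (CPM). Sums have exact Poisson intervals, shares exact Clopper-Pearson intervals and ratios conditional binomial intervals, all at 95%, and a count of 0 was set to 3 for a bound. PCR and capture add error that these intervals do not cover. The fold limit was 2, among genes with at least 20 UMIs over both libraries.

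Genes were named from gene lists, from the 10 highest and 10 lowest ratios per pair of libraries at 30 UMIs or more, and from the 25 genes with the highest ratio to other cells. For the ratio to other cells, counts under 3 were set to 3 in gated and in other cells. The members and lists were chosen with earlier results of these data known. Cells were clustered with scanpy 1.11.5 and leidenalg 0.10.2 on 500 variable genes, 10 components and 10 neighbors at resolution 1. No doublet caller was run, and cells with at least 3 markers of another type were left out as an alternative. numpy 2.4.6, scipy 1.17.1, pandas 2.3.3, igraph 0.11.9 and matplotlib 3.10.9 were used. Certain genes are not reported here.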

Additional observations from a re-analysis of the deposited data

How the results depend on the processing

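No paired analysis was possible because each group is 1 library. With 18 cells at 7 days and 1 pool per group, differences are of these libraries. The following alternatives moved a value, and the cause was not tested. The shares of gated cells in control, 1 day and 7 days became 0.804%, 1.62% and 0.600% of cells with at least 300 genes, 0.157%, 0.212% and 0.158% after thinning, and 0.395%, 0.216% and 0.0711% without cells with 3 or more markers of another type. In control and 1 day they became 0.366% and 0.594% with 4 markers, 0.279% and 0.573% with 3 of 6 markers without Krt8 and Krt18, and 0.747% and 1.93% at no more than 20% mitochondrial UMIs.

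The duct list share in control and 1 day was 3.56% and 4.09% with 4 markers, 3.48% and 4.18% without Krt8 and Krt18, 3.22% and 2.69% without the deepest 5% of cells, which turned the 1-day direction, 3.0% and 4.29% without hepatocyte-rich cells, 3.42% and 4.29% without Spp1- and Clu-poor cells as well (both added after seeing the data), 3.67% and 4.04% after thinning, 2.68% and 3.15% without mitochondrial genes, 2.43% and 3.26% without hepatocyte genes and 3.11% and 3.52% as a mean over cells. It was 3.31%, 4.33% and 6.28% without cells with other markers, 1.95% in the control with no exclusion genes and 3.95% at 1 day without cells over 20% hepatocyte UMIs.

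Genes past 2-fold numbered, for 1 day against control, 7 days against control and 7 days against 1 day, 361, 111 and 488 without Krt8 and Krt18, 58, 73 and 35 without cells with other markers, 9, 10 and 8 after thinning, 132, 115 and 290 at 50 UMIs, 2009, 1050 and 1776 at 1 UMI, and 1125, 538 and 1260 at 1.5-fold. The first 2 were 359 and 188 without hepatocyte-rich cells and 370 and 171 without Spp1- and Clu-poor cells as well. For 7 days against control the count was 150 with 4 markers and 181 without the deepest 5%, and for 1 day against control 862 as a mean over cells.

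Of single gene ratios under alternatives, 3301 stayed the same, 176 fell below 2-fold, 162 passed it, 48 moved and 31 reversed. On the log2 scale Mt1 at 7 days against control was 2.53 with 4 markers, 3.41 without Krt8 and Krt18, 2.15 without cells with other markers, 1.63 without the deepest 5%, 1.80 without hepatocyte-rich cells, 1.91 without Spp1- and Clu-poor cells as well and 0.11 as a mean over cells. Mt1 at 1 day was 0.59 with 4 markers, 1.17 without Krt8 and Krt18 and 0.96 without the deepest 5%. Without cells with other markers, 7 days against 1 day gave 0.78 for 1600029D21Rik, Onecut1 and Pkhd1, 0.20 for Anxa13, 0.33 for Gas6, 0.46 for Sox4 and -0.80 for Sftpd, 7 days against control gave 0.93 for Hp1bp3 and Prom1, 0.57 for Onecut1 and 1.42 for Pkhd1 (1 UMI each at 7 days), and 1 day against control gave 1.37 for Msmp and -0.05 for Wfdc17. Wfdc17 at 7 days against 1 day was -0.31 with 4 markers and -0.03 without Krt8 and Krt18. Serpina1d at 1 day was -0.26 without cells over 20% hepatocyte UMIs. After thinning, Ces1d and H2-Eb1 at 1 day were -0.25 and 0.75. As a mean over cells, Anxa13 and Sftpd at 7 days against 1 day were 0.34 and -0.36, and Qpct at 7 days against control was 0.56.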
